A study of Bos taurus with 12 samples.

Results

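The deposited table of cytosines whose methylation differed between subfertile and fertile cows held 258 sites in or beside 29 genes of 8 families of developmental transcription factors: HOX, FOX, SOX, PAX, TBX, LHX, NKX and MEIS. A site was taken where the authors' annotation did not place it in distal intergenic sequence and where the symbol of its host gene began with a family name, except TBX19. The rule left 258 of the 92535 genic sites and 29 of the 10773 genes with such a site, from a table of 216990 sites in all. Of the 258 sites, 15 were annotated to the promoter of 8 genes, which the authors' annotation extends to 3 kb from a listed transcription start. The other 243 sites lay in 26 genes. The name rule also took FOXRED2, an oxidoreductase gene of the endoplasmic reticulum that is not a forkhead factor.

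Whole blood was drawn from 12 cows that were kept on one farm under one regime, in a herd aged 3 to 8 years. Over the following year 6 of them were culled because of reproductive trouble that was unknown when blood was taken, and these form the subfertile group. The 6 fertile cows stayed in the herd without a fertility problem. DNA from 1 mL of blood per cow was converted enzymatically and sequenced, and the table gives the percent of cytosines read as methylated per site and cow, on the build ARS-UCD1.2. The labels separate the groups only in a field named genotype, which holds the class Fertile or Subfertile and no allele. They give no breed, treatment or age per cow, so a difference in age between the groups was not tested. The cow numbers of the groups form separate ranges, whose meaning is not given. Every value is of mixed blood cells, so a different share of a cell type and a different methylation level within cells cannot be told apart. Each cow is a separate animal, but the read count behind each value is unknown, so no value carries a counting interval. A cow's own DNA sequence at or beside these cytosines was not tested.

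These families pattern the embryo. HOX genes set position along the body axis with MEIS proteins as DNA-binding partners, PAX, LHX, NKX, SOX and TBX factors fix the identity of organs and cell types, and forkhead (FOX) factors act in organ formation and in many adult cells, lymphocytes included. Their starts often lie in broad stretches rich in CpG that carry little methylation, and in tissues where the genes are silent these stretches are commonly held by Polycomb complexes. In blood, PAX5 maintains B cell identity, MEIS1 and HOXA10 act in blood progenitors, and FOXP1 acts in lymphocytes and monocytes.

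The families were thinly covered by the deposited sites. RefSeq's gene table lists 149 protein-coding genes with these names, and 29 of them (19.5%) carried a site, beside 7580 of 18374 other named protein-coding genes (41.3%). A promoter site was found in 8 of the 149 (5.37%) and in 3161 of the other genes (17.2%). Coverage ran from 1 of 14 NKX genes and 3 of 39 HOX genes, through 2 of 18 SOX, 10 of 47 FOX, 2 of 8 LHX and 4 of 12 TBX genes, to 5 of 8 PAX and 2 of 3 MEIS genes. Sites were counted by the authors' annotation, which assigns to NKX6-2 and HOXB13 sites that lie outside their listed transcripts. Gene length and the number of cytosines that could be measured in each gene are not part of this comparison, which is a count and not a test.

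**Figure D1:**
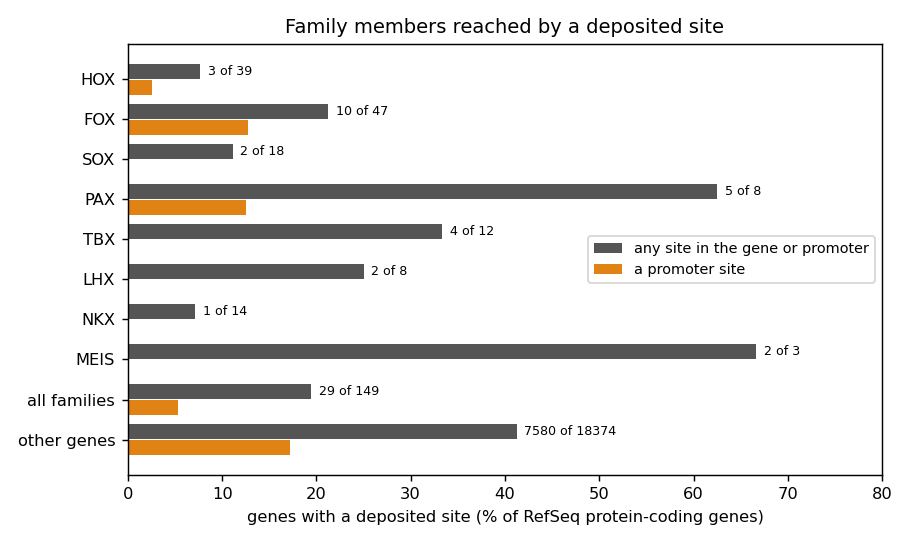
Share of RefSeq protein-coding genes with a deposited site, per family and for all other named genes, in percent. Grey bars count any site that the annotation assigns to the gene outside distal intergenic sequence, and orange bars a promoter site. The counts include NKX6-2 and HOXB13, whose sites lie outside their listed transcripts. PAX (5 of 8) and MEIS (2 of 3) stand highest, and HOX (3 of 39) and NKX (1 of 14) lowest.

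Introns held 229 of the 258 sites (88.8%, against 83.2% of all genic sites) and promoters 15 (5.81%, against 13.0%). A further 8 sites were annotated to a 3′ untranslated region, 5 to exons and 1 downstream of a gene. Sites were unevenly spread over the genes: FOXN3 alone held 84 (32.6%), 13 genes with at least 8 sites held 227, and 9 genes held 1 site each. With sites of a gene joined where gaps were at most 1 kb, the 258 sites formed 160 clusters, of which 105 were single sites, 20 had at least 3 sites and the largest had 9. Both strands of a CpG were present for 51 pairs, and the strands of all 51 differed between groups in the same direction. The same held for all 21175 pairs over all genic sites. The median difference between the strands of a cow was 4.17 points in member pairs and 5.56 points in all genic pairs.

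Every site in the table had been chosen by the authors for a difference above 25 points with a q-value below 0.01 on these same cows, so the sizes below are conditional on that choice and p-values describe the spread among cows and are not independent evidence. Mean methylation was higher in subfertile cows at 121 member sites and lower at 137, which is 46.9% higher (exact 95% binomial interval 40.7 to 53.2%, which treats sites as independent although neighbouring sites share cows and often a CpG). Over all genic sites 50.6% were higher. Among promoter sites 8 were higher and 7 lower (53.3%, interval 26.6 to 78.7%, against 50.6% of all promoter sites). Among other sites 113 were higher and 130 lower (46.5%, interval 40.1 to 53.0%, against 50.6% of all other genic sites). Without FOXN3 the latter split was 80 against 80. The promoter and other shares have overlapping intervals, and both intervals include the share over all genic sites. The promoter share was 25% of 4 sites with a deposited difference of at least 40 points and 33.3% of the 9 sites left without those whose cows reached from under 10% to over 80%. The share of other sites was 35.7% of 56 sites at 40 points, and 58.2% of 239 sites with the nearest gene in place of the host gene, so the side of 50% on which each share fell depended on these choices.

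Levels were spread over the whole scale. The median site mean was 51.6% in subfertile and 64.9% in fertile cows at promoter sites, and 52.0% and 60.0% at other sites. The median absolute difference was 33.9 points at promoter sites and 32.5 points at other sites, beside 33.4 points over all genic sites. Of 3053 single values, 23.9% were under 10%, 21.7% lay between 35 and 65%, and 32.2% were over 90%. A site is called wide-range here where the cows reached from under 10% to over 80%, and this held for 6 of 15 promoter sites (40%) and 174 of 243 other sites (71.6%), against 69.7% of all genic sites. Of the 6 FOXP1 promoter sites 1 was of wide range.

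No member site passed limma with an adjusted p of at most 0.01 and 25 points. The smallest adjusted p was 0.0661, 122 sites (47.3%) had an unadjusted p under 0.05, and among all 216990 sites none (0.0%) passed and 52.7% had an unadjusted p under 0.05. The groups did not overlap at 6 of 258 member sites (2.33%), beside 2.93% of all genic sites. Of these 1 was a promoter site (6.67% of 15, against 3.48% of all promoter sites) and 5 were other sites (2.06%, against 2.84%). They lay in FOXN3, FOXP1, MEIS1, PAX3, TBX20 and TBX5. Only the FOXN3 site was higher in subfertile cows, whereas 1597 of the 2707 genic sites without overlap were higher. Whether the direction of so few member sites differs from that share was not tested.

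On the scale of genes, methylation was averaged over the sites of a gene in each cow and tested with limma on a log2 ratio of methylated to unmethylated percent. The test passed 0 of 26 member genes at an adjusted p of 0.05, beside 12 of 9891 genes (0.121%), and 9 members (34.6%) had an unadjusted p under 0.05, beside 40.6% of all genes. Mean methylation was higher in subfertile cows in 15 member genes and lower in 14, with 52.0% of all genes higher. Averages per gene did not overlap between groups in 0 of 29 members, beside 3.5% of all genes. HOXA10, PAX9 and FOXO6, each with 1 promoter site that lacked a value in 1 cow, were not tested.

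**Figure D2:**
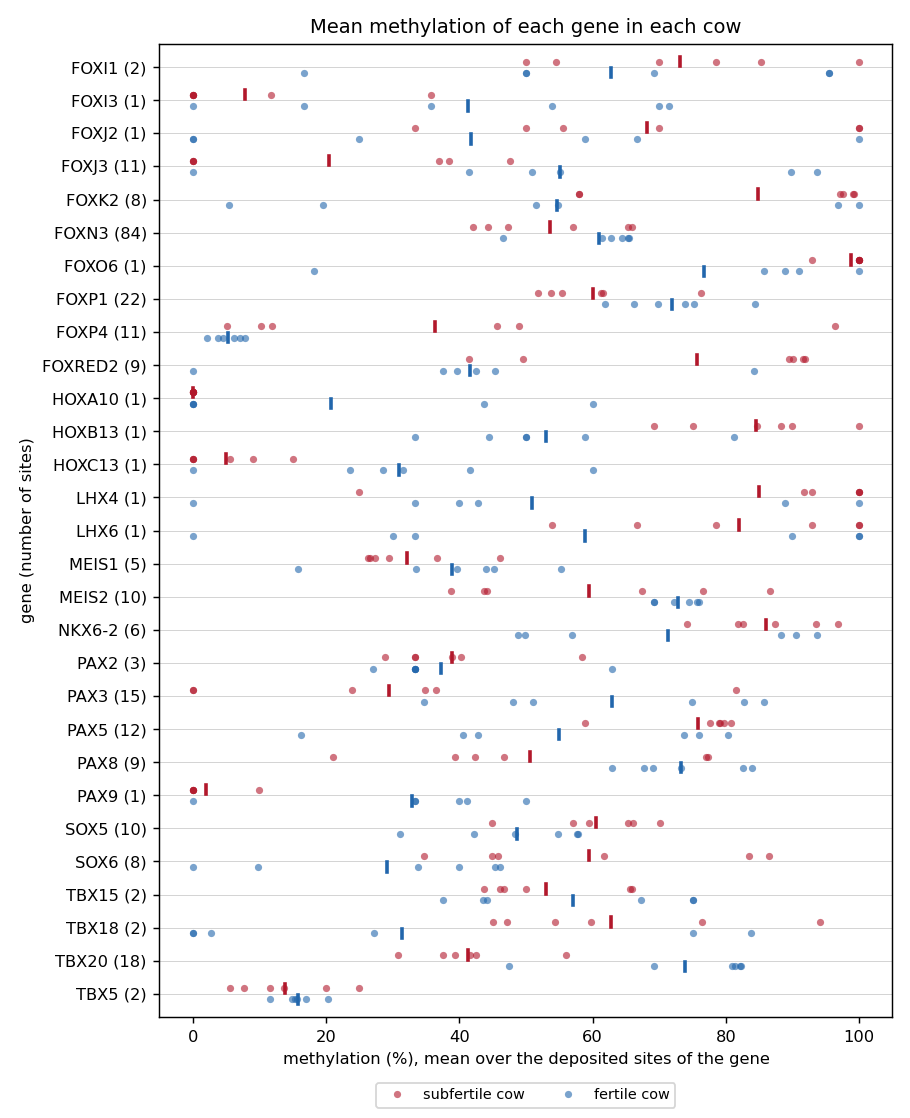
Mean methylation in percent over the deposited sites of each of the 29 genes, with 1 point per cow and a vertical bar at each group mean (red subfertile, blue fertile, 6 cows each, fewer where a value was missing). The groups overlap in every gene; TBX20 and HOXB13 come closest to separation and FOXP4 is low in all fertile cows.

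For promoters, limma was run on genes with at least 3 promoter sites, which were FOXP1 and FOXP4 among the members. It passed 0 of 2, beside 205 of 1292 genes (15.9%). The difference between promoter and other sites of the same gene passed in 0 of 2 members, beside 18 of 602 genes (2.99%). One of the 2 promoter means, that of FOXP4, had an unadjusted p under 0.05, as did 51.9% of all promoter means.

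FOXP1 encodes a forkhead repressor used by B cells, T cells and monocytes. Its 22 sites ran over chromosome 22 from 30304165 to 30654391, and its 6 promoter sites were both strands of 3 CpGs, each downstream of a different listed start inside the gene. At 30350833 and 30350834, 1193 and 1194 bases after a start, subfertile cows other than cow 2 lay between 25 and 33.3% on the first strand and between 31.8 and 50% on the second. Subfertile cow 2 had 80 and 100%, and the fertile cows lay between 76.2 and 100% on both strands. At 30386747, 2677 bases after a start, all 6 fertile cows were at 100% and the subfertile cows at 38.5, 90.9, 60, 45.5, 41.2 and 33.3%, so that the groups did not overlap. The other strand at 30386748 had 54.8% ± 28.1 (SD, n = 6) in subfertile and 96.7% ± 5.80 (SD, n = 6) in fertile cows, with subfertile cow 2 at 100%. Subfertile cow 2 thus sat with the fertile cows, or nearest to them, at all 4 of these sites.

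The third FOXP1 CpG, at 30452616 and 30452617, went the other way. Subfertile cows had 94.9% ± 4.002 and 92.3% ± 5.85 (SD, n = 6), and fertile cows 61.5% ± 39.7 and 64.9% ± 29.1 (SD, n = 6). Fertile cows 1, 5 and 6 were at 50% or lower on both strands while fertile cows 2, 3 and 4 were at 83.3% or higher. Over the 6 promoter sites the mean was 63.8% ± 14.9 in subfertile and 82.6% ± 12.2 in fertile cows (log2 difference -1.34, SE 0.66, limma adjusted p = 0.109). The 16 FOXP1 intron sites gave a log2 difference of -0.52 (SE 0.35, limma adjusted p = 0.236), and the difference between the promoter and intron shifts was -0.82 (SE 0.49, limma adjusted p = 0.254). Promoter and intron sites of FOXP1 were therefore not separable at the spread of these cows. Without wide-range sites 7 of 17 member genes passed limma (FOXI3, HOXB13, PAX3, FOXP4, TBX20, HOXC13 and FOXRED2), beside 42.2% of all genes, on 1 to 7 remaining sites per gene. Likewise, the FOXP1 promoter mean passed (limma adjusted p = 0.0163, where 74.8% of 314 promoters passed), as did its difference from the intron shift (limma adjusted p = 0.0315, where 27.1% of 118 genes passed). The FOXP1 promoter site left out there was 1 of the 2 at the third CpG that were higher in subfertile cows.

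FOXP4, a relative of FOXP1 known from lung and gut development, was higher in subfertile cows at all 11 sites, on chromosome 23 from 15363567 to 15408306. At its 3 promoter sites, all 6 fertile cows and subfertile cows 2, 3 and 4 were listed at 0. Subfertile cow 1 was at 100% at all 3, cow 5 at 61.5, 56.2 and 25%, and cow 6 at 41.7, 47.6 and 46.7%. The same 3 cows carried the difference through the gene: over all 11 sites subfertile cows 1 to 6 averaged 96.4, 5.19, 11.9, 10.2, 45.7 and 49.0%, and fertile cows between 2.10 and 7.78%. All 12 cows had methylation at 1 intron site, where the fertile cows reached 23.1 to 77.8%. The gene mean was 36.4% ± 34.95 against 5.23% ± 2.16 (SD, n = 6 each, log2 difference 2.46, SE 0.98, limma adjusted p = 0.0986), and promoter and other sites differed by a log2 shift of 0.53 (SE 0.57, limma adjusted p = 0.550).

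The remaining promoter sites were single cytosines. The HOXA10 site at 68861284 on chromosome 4, 1155 bases before the start, was listed at 0 in all 6 subfertile cows. Of the fertile cows, cow 1 had 43.8%, cow 3 had 60%, cow 4 had no value and the others were at 0. HOXA10 shapes the uterus in the embryo and is needed in the endometrium at implantation, and its difference rests on these 2 cows. PAX9, a gene of the pharyngeal pouches and teeth, had 1 site 2446 bases before its start, at 0, 0, 0, 10 and 0% in the 5 subfertile cows with a value and at 41.2, 40, 33.3, 33.3, 0 and 50% in the fertile cows. Fertile cow 5 was the exception to the separation.

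FOXN3 had 1 promoter site, 672 bases after a start, at 93.3 to 100% in the 5 subfertile cows with a value, and at 23.1, 45.5 and 53.3% in fertile cows 2, 3 and 5 and 100% in the other 3. FOXO6, a forkhead factor of the insulin pathway, had 98.8% ± 2.92 (SD, n = 6) in subfertile and 76.7% ± 33.2 (SD, n = 5) in fertile cows at a site 2847 bases after its start, with fertile cow 3 at 18.2% and the other fertile values between 85.7 and 100%. FOXI1, which specifies acid-secreting cells of kidney and inner ear, ran the other way at a site 2891 bases before its start, with 62.8% ± 35.4 (SD, n = 6) and 98.2% ± 4.07 (SD, n = 5). FOXRED2 had 83.8% ± 22.5 against 47.6% ± 31.2 (SD, n = 6 each) at a site 1854 bases after its start.

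**Figure D3:**
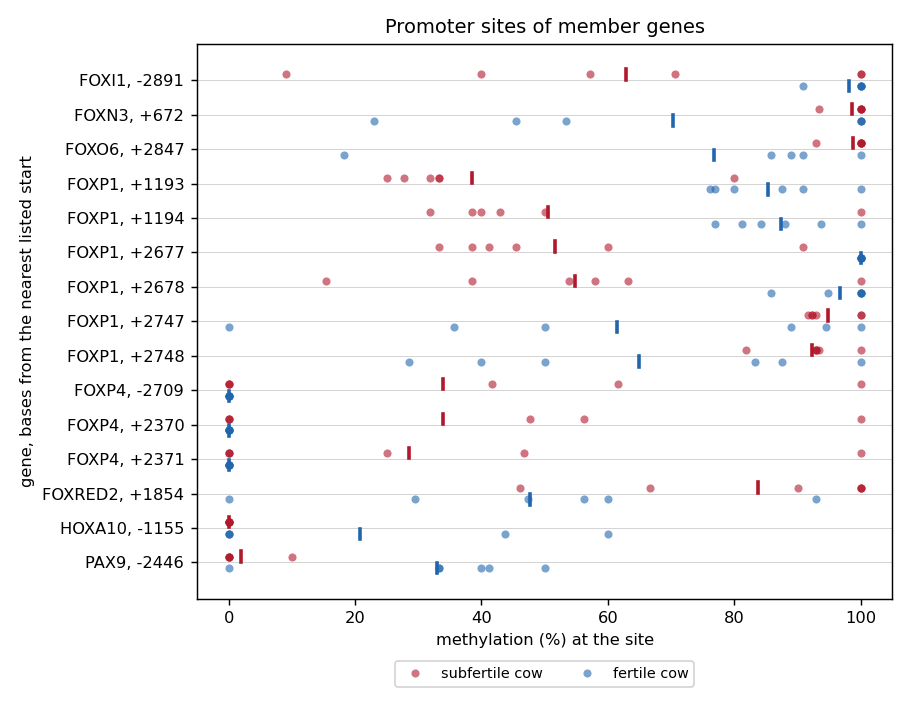
Methylation in percent at each of the 15 promoter sites, labelled by gene and by distance in bases from the nearest listed start, with 1 point per cow and a bar at each group mean (red subfertile, blue fertile). At the FOXP1 site 2677 bases after a start every fertile cow is at 100% and no subfertile cow exceeds 90.9%; at the FOXP4 sites every fertile cow is listed at 0.

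Among HOX genes, 3 carried 1 site each, and none of these was of wide range. The HOXC13 site, in the 3′ untranslated region of this hair and nail gene, had 4.94% ± 6.20 in subfertile and 30.9% ± 19.9 in fertile cows (SD, n = 6 each, log2 difference -2.22, SE 0.76, limma adjusted p = 0.0821), and fertile cow 3, at 0, was the only fertile cow under 23.5%. HOXB13, expressed in the tail end of the body axis and in prostate, had 84.5% ± 11.03 and 53.0% ± 16.2 (log2 difference 2.17, SE 0.62, limma adjusted p = 0.0688), with subfertile cows at 69.2 to 100% and fertile cows at 33.3 to 81.2%. Its site is annotated to a 3′ untranslated region but lies 27310 bases outside the listed transcript. Both HOX sites thus had shifts of similar size in opposite directions.

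MEIS1 and MEIS2 encode homeodomain partners of HOX proteins. MEIS1, a gene of blood stem cells, had 5 intron sites over 135686 bases of chromosome 11, of which 2 were higher and 3 lower. At 64814335 in intron 4 the groups did not overlap: subfertile cows had 0, 7.14, 0, 12.5, 9.09 and 20%, and fertile cows 46.2, 33.3, 50, 50, 33.3 and 25%. At 64853601 in intron 7 the direction turned, with 89.3% ± 11.6 in subfertile and 50.5% ± 37.2 in fertile cows (SD, n = 6 each), so that the MEIS1 mean differed little (32.1% ± 7.85 and 38.9% ± 13.4, limma adjusted p = 0.513).

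MEIS2 had 10 intron sites on chromosome 10, 7 of them lower in subfertile cows. Over these 7 sites, which span 104241 bases, subfertile cows 1, 2 and 3 averaged no more than 38.7%. Subfertile cows 4, 5 and 6 averaged 93.8, 91.4 and 89.8%, within or just below the fertile range of 92.3 to 96.3%. The lower values were thus those of 3 of 6 subfertile cows (gene mean 59.5% ± 20.03 and 72.8% ± 3.04, limma adjusted p = 0.287).

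LHX4 and LHX6, LIM homeodomain genes of the pituitary and of forebrain interneurons, had 1 intron site each, higher in subfertile cows. LHX4 had 84.9% ± 29.6 and 50.8% ± 37.2 (limma adjusted p = 0.144) and LHX6 82.0% ± 19.0 and 58.9% ± 43.1 (SD, n = 6 each, limma adjusted p = 0.373). In both genes fertile cows reached from 0 to 100%. NKX6-2, a gene of glial cells, was assigned 6 sites annotated to its 3′ untranslated region, all of which lie 2786 to 32800 bases outside its listed transcript of 1155 bases and inside listed transcripts of the neighbouring INPP5A. At 5 of them, from 50966446 to 50968201 on chromosome 26, subfertile cows averaged 88.9 to 98.3%. Fertile cows 2, 4 and 5 averaged 88.6, 92.5 and 95.8% there, and fertile cows 1, 3 and 6 averaged 39.8, 48.2 and 38.6%.

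PAX genes had sites in 5 of 8 members, and 36 of their 40 sites were of wide range. PAX3, a neural crest and muscle gene, was lower in subfertile cows at all 15 of its intron sites, on chromosome 2 from 110399375 to 110458933. Over these sites subfertile cows 1 to 6 averaged 36.5, 0, 81.6, 34.9, 23.9 and 0%, and fertile cows 82.7, 85.7, 48.1, 51.1, 34.7 and 74.9%. Subfertile cows 2 and 6 were listed at 0 at every site with a value, whereas subfertile cow 3 was as high as the upper fertile cows. The gene mean was 29.5% ± 30.2 against 62.9% ± 21.0 (SD, n = 6 each, log2 difference -2.45, SE 1.04, limma adjusted p = 0.109). At 110408944 in intron 4 the groups did not overlap, with 41.7% the highest subfertile and 42.9% the lowest fertile value.

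PAX8, a gene of thyroid and, with PAX2, of kidney and the Müllerian duct that forms oviduct and uterus, had 9 sites within 10554 bases of chromosome 11. The 7 lower sites, from 46926747 to 46931154, averaged 0, 37.4, 81.4, 38.6, 70.5 and 31.6% in subfertile cows and 66.6 to 90.5% in fertile cows. The 2 higher sites at the other end, 46934936 and 46937300, were at 100% in subfertile cows 5 and 6 and in fertile cow 6, and at 0 in fertile cow 2. Over the gene the means were 50.7% ± 22.4 and 73.2% ± 8.46 (log2 difference -1.29, SE 0.59, limma adjusted p = 0.122). PAX2 itself had 3 intron sites without a common direction and near-equal means (38.8% ± 10.4 and 37.2% ± 12.9, limma adjusted p = 0.869).

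PAX5 had 12 intron sites on chromosome 8. At the first 10, from 61038243 to 61078338, subfertile cows other than cow 4 averaged 93.1 to 96.9%, and cow 4 averaged 57.8%. Fertile cows 3, 4 and 6 averaged 95.5, 88.5 and 91.2%, fertile cows 2 and 5 averaged 39.2 and 41.9%, and fertile cow 1 was at 0 throughout. At the 2 sites that follow, at 61079071 and 61108224, the order was largely turned: fertile cow 1 averaged 97.4%, fertile cow 2 60.7%, subfertile cow 4 63.9% and fertile cow 5 33.3%, and all others were at or near 0. The highest cows on one side of this boundary were the lowest on the other. Subfertile cow 4 and fertile cows 2 and 5 lay between on both sides, and subfertile cow 4 was the highest of them on both. The gene mean was 75.8% ± 8.35 and 54.9% ± 25.7 (SD, n = 6 each, log2 difference 1.23, SE 0.65, limma adjusted p = 0.157).

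Since PAX5 marks B cells, sites in cell type markers were set beside it. The B cell gene MS4A1 was lower in subfertile cows at its 1 site (53.1% ± 29.8 against 88.7% ± 17.2, SD, n = 6 each). All 4 natural killer markers had sites, of which NKG7 was higher without overlap (78.0% ± 6.14 against 38.6% ± 21.5) and PRF1, GZMB and KLRF1 were lower. Of 5 T cell markers 3 had sites, with CD3E and CD2 higher and CD5 lower, and of 5 myeloid markers 1, MPO, was lower without overlap (51.7% ± 27.1 against 87.3% ± 6.84). None of the marker genes named here passed limma over its genic sites, beside 0.121% of all genes that did. GZMB passed over its promoter sites, as did 15.9% of all 1292 genes in that fit. Gene means without overlap, as in NKG7 and MPO, were found in 3.5% of all genes. The part of blood cell composition in the member results was not tested.

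SOX5 and SOX6 encode partner factors of cartilage formation, and SOX6 also acts in red cell maturation. SOX6 had 8 intron sites on chromosome 15, 7 of them higher in subfertile cows and clustered at one end, from 36476703 to 36539997. Over these 7 sites subfertile cows averaged 94.03, 52.4, 65.1, 95.5, 51.3 and 39.6%, and fertile cows 38.5, 4.76, 53.8, 0, 28.4 and 46.1%. The upper fertile cows overlapped the lower subfertile cows, and the gene mean was 59.5% ± 21.6 against 29.2% ± 19.6 (log2 difference 2.10, SE 0.83, limma adjusted p = 0.0983). SOX5 had 10 sites over 546863 bases of chromosome 5, 7 higher and 3 lower, with means of 60.5% ± 8.996 and 48.7% ± 10.5 (limma adjusted p = 0.206).

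Of the T-box genes, TBX20 had the lowest adjusted p of all members. This heart factor had 18 sites in 35624 bases of chromosome 4 (61796921 to 61832544), or 41.3 sites per 100 kb of its listed transcript, and 16 of them were lower in subfertile cows. Gene means in subfertile cows 1 to 6 were 41.7, 56.0, 37.5, 39.3, 42.5 and 30.9%, and in fertile cows 82.1, 80.9, 82.3, 47.5, 81.3 and 69.2%. The groups overlapped only through subfertile cow 2 and fertile cow 4. The mean difference was 41.3% ± 8.32 against 73.9% ± 13.9 (SD, n = 6 each, log2 difference -1.88, SE 0.45, limma adjusted p = 0.0603, and 0.0611 to 0.0837 with any 1 cow left out).

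The TBX20 value lay close to the threshold, and other ways of counting moved it across. Among genes with at least 3 sites it passed limma (adjusted p = 0.0488, where 1.43% of 5575 genes passed). With clusters of at least 3 sites as the unit, an alternative chosen after the data were seen, 2 of 20 member clusters passed, both in TBX20, beside 24.6% of 7530 clusters, and groups did not overlap in 0 of the 20, beside 3.81%. The cluster in intron 4 (61801188 to 61801456) had 22.4% ± 20.2 against 70.5% ± 28.1 (limma adjusted p = 0.0443), and that in intron 5 (61805205 to 61805764) 41.9% ± 15.3 against 83.8% ± 16.04 (SD, n = 6 each, limma adjusted p = 0.0376). Within the latter, 61805524 showed groups that did not overlap, with subfertile values of 50, 0, 0, 28.6 and 0%, subfertile cow 3 without a value, and fertile values of 100, 91.7, 86.7, 55.6, 83.3 and 58.8%. Its difference of 63.6 points was the largest of the 258 sites.

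Both strands of 1 CpG in TBX20 intron 6, at 61811723 and 61811724, ran against the rest of the gene. Fertile cows other than cow 4 and subfertile cow 2 were at 0 on both strands there. Fertile cow 4 averaged 48.9%, and the other subfertile cows 36.1, 85.2, 55.8, 40.6 and 42.6%. Fertile cow 4, the lowest fertile cow over the gene, was thus also the fertile cow on the subfertile side at this CpG.

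The other T-box genes had 2 sites each. TBX5, of heart and forelimb, had 1 site at 60236100 on chromosome 17 at 0 in 5 subfertile cows and 7.69% in subfertile cow 4, against 21.4 to 31.2% in fertile cows, without overlap. Its second site at 60277083 was opposite, with 30.3% ± 15.1 (SD, n = 5) in subfertile and 5.05% ± 5.85 (SD, n = 6) in fertile cows, and the mean of both differed little (13.9% ± 7.41 and 15.8% ± 2.85). TBX18, a gene of the sinus node and ureter, was higher at both sites (62.8% ± 19.0 and 31.5% ± 38.6, limma adjusted p = 0.129). TBX15, a skeletal gene, had 1 site in each direction.

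Among the forkhead genes outside the promoter sites, FOXJ3 stood lower in subfertile cows at all 11 of its intron sites over 110290 bases of chromosome 3 (103883837 to 103994126). Subfertile cows 3, 4 and 6 and fertile cow 1 were listed at 0 at every site. Subfertile cows 1, 2 and 5 averaged 36.9, 47.6 and 38.5%, fertile cows 2, 4 and 6 averaged 51.0, 41.4 and 55.1%, and fertile cows 3 and 5 averaged 89.8 and 93.6%. By their averages the cows fell into 3 ranges, and both groups held cows in the low and the middle range. At single sites the middle and upper ranges overlapped, since fertile cow 3 fell to 52.6% and subfertile cow 2 and fertile cow 6 reached 72.7 and 75% (gene mean 20.5% ± 22.7 and 55.2% ± 34.4, log2 difference -2.64, SE 1.29, limma adjusted p = 0.137).

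FOXK2, chosen for description after its values were seen, also had cows at widely different averages at 8 intron sites over 30645 bases of chromosome 19, all higher in subfertile cows. Subfertile cows averaged 58.0, 97.1, 99.1, 97.6, 58.0 and 99.2%, and fertile cows 96.8, 100, 54.7, 19.5, 51.6 and 5.43% (limma adjusted p = 0.189). FOXRED2 had 9 sites on chromosome 5, all higher, with subfertile cows 1, 2, 4 and 6 at 89.5 to 91.9% and cows 3 and 5 at 49.5 and 41.4%. Fertile cows 1 to 4 averaged 37.6 to 45.3%, cow 5 averaged 84.2% and cow 6 was at 0 (75.7% ± 23.5 and 41.5% ± 26.7, limma adjusted p = 0.102).

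**Figure D4:**
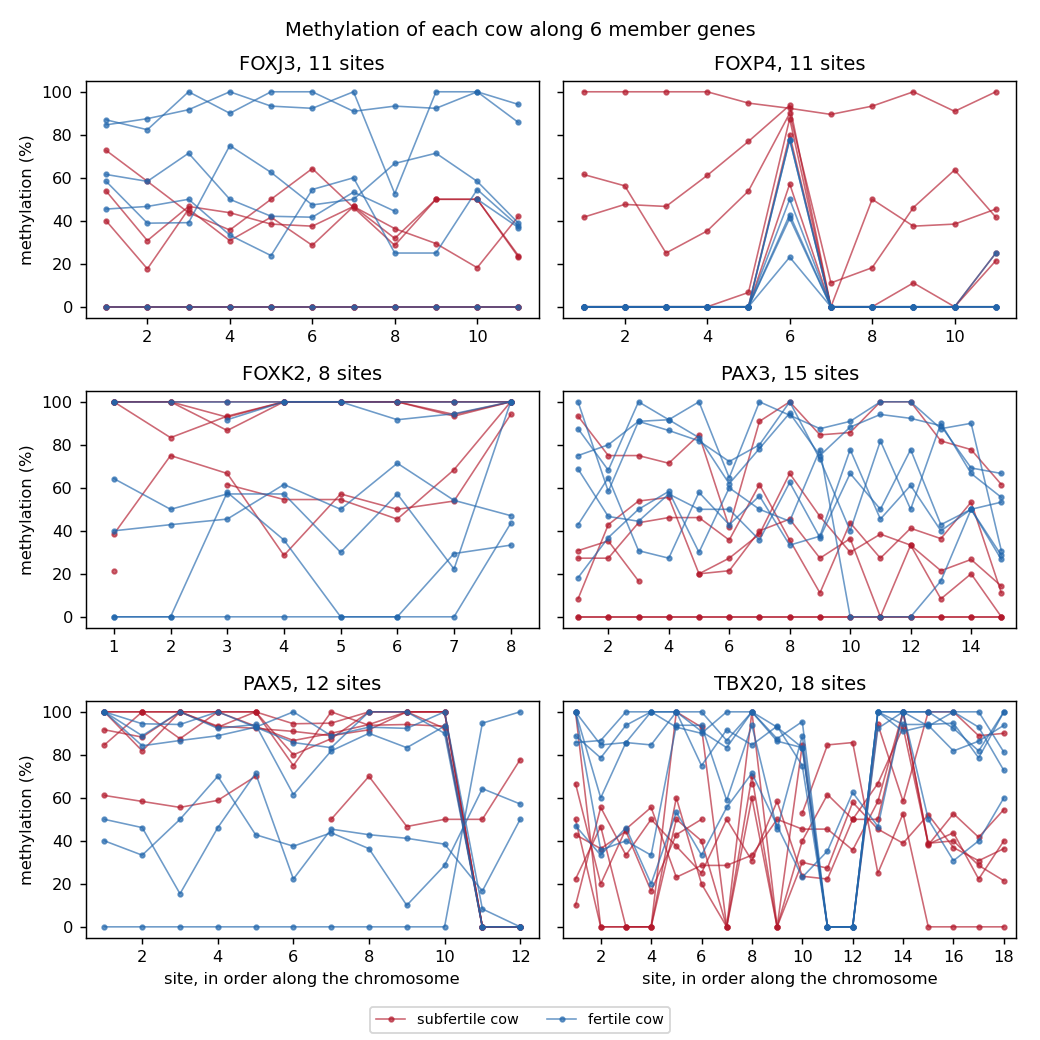
Methylation in percent along 6 member genes, with the deposited sites in order along the chromosome on the x axis and 1 line per cow (red subfertile, blue fertile; a line breaks where a cow has no value). In FOXJ3 4 cows are at 0 at all 11 sites and fertile cows 3 and 5 are highest on average. In PAX5 the order of cows largely turns after the tenth site, and in TBX20 most fertile cows stay above the subfertile cows except at sites 11 and 12.

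FOXN3, a forkhead repressor linked to the cell cycle checkpoint, held 84 sites from 100839609 to 101232815 on chromosome 10, of which 34 were higher and 50 lower and 61 were of wide range. It had 19.0 sites per 100 kb of its longest listed transcript of 442874 bases. Of the 833 genes with transcripts of at least 200 kb, 17.2% were denser, and the median was 6.10. The similarly long SOX5 and SOX6 had 1.67 and 1.70. The gene mean hid its structure: 53.7% ± 10.6 in subfertile and 61.0% ± 7.28 in fertile cows (SD, n = 6 each, log2 difference -0.39, SE 0.39, limma adjusted p = 0.399).

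Along FOXN3 every intron held sites of both directions, and their balance differed between introns. In intron 6, at the 3′ end, 20 of 21 sites were lower in subfertile cows, and in intron 5 15 sites were higher and 9 lower. Intron 4 had 3 higher and 7 lower sites, intron 3 had 6 and 3, intron 2 had 6 and 9, and intron 1 had 2 and 2. A set of 3 arrangements of cows, read from the values and not tested, accounted for many of the sites.

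In the first arrangement, at 23 sites within 20195 bases of introns 6 and 5, subfertile cows 1 and 5 and fertile cow 1 were listed at 0 at every site with a value, and subfertile cow 6 averaged 0.435%. Subfertile cow 2 averaged 45.3%, and all other cows, subfertile cows 3 and 4 included, averaged 95.6 to 98.4%. In the second, at 14 sites in 3 introns, from 100891035 to 101232815, nearly the mirror image was seen: subfertile cows 3 and 4 and fertile cows 2 to 6 averaged 0 to 0.549%, and subfertile cows 1, 2, 5 and 6 and fertile cow 1 averaged 70.5, 47.4, 85.8, 87.2 and 83.4%. In both arrangements fertile cow 1 sat with subfertile cows 1, 5 and 6, and subfertile cows 3 and 4 sat with the other fertile cows.

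The third arrangement split the fertile cows. At 13 sites, the promoter site among them, from 100849477 to 101176922, fertile cows 2, 3 and 5 averaged 38.1, 43.8 and 44.6%, whereas the 9 other cows averaged 95.2 to 98.8%. One of these sites, 100922038 in intron 5, was the FOXN3 site without overlap, with all 6 subfertile cows at 100% and fertile cows at 91.7, 36.4, 45.5, 90, 57.1 and 93.8%. Fertile cows 1, 4 and 6 came close to the subfertile cows there, and the low values were those of fertile cows 2, 3 and 5.

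**Figure D5:**
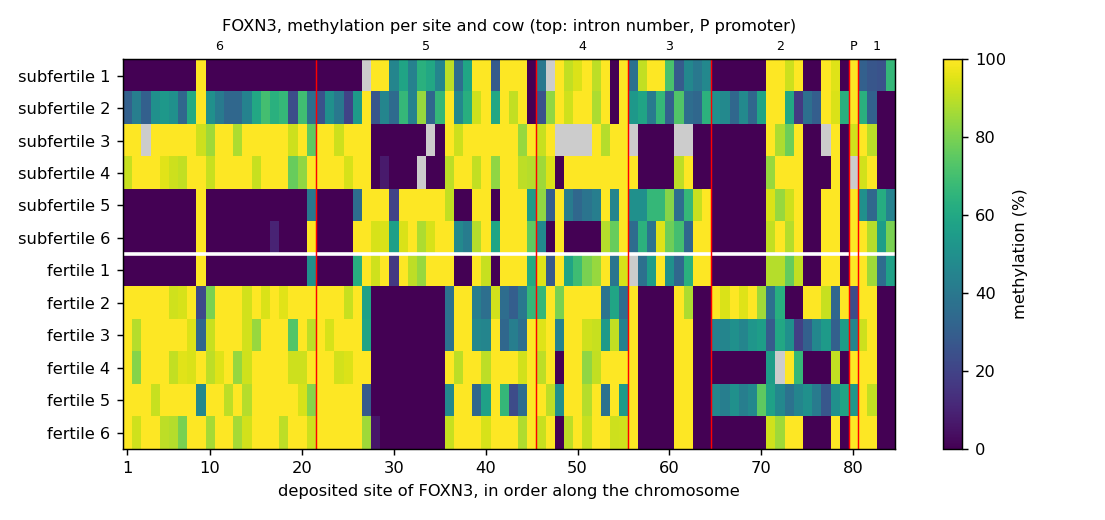
Methylation in percent (colour) at the 84 FOXN3 sites, in order along the chromosome on the x axis, for each cow on the y axis; grey marks a missing value, red lines bound introns (numbers above, P for the promoter site) and the white line parts the groups. Fertile cow 1 resembles subfertile cows 1, 5 and 6 across introns 6, 5 and 3, and fertile cows 2, 3 and 5 share intermediate values at 13 sites.

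A pair of lists of family genes, used in blood cells and in reproductive organs, was read by their counts. Of 15 family genes used in blood cells 4 had a site (FOXP1, PAX5, MEIS1 and HOXA10), with PAX5 higher and the other 3 lower in subfertile cows, and 0 of 3 tested passed limma, none with an unadjusted p under 0.05. Of 16 family genes used in ovary, oviduct and uterus 3 had a site (HOXA10, PAX2 and PAX8), and 0 of 2 tested passed limma, with 1 (PAX8) at an unadjusted p under 0.05. Among all 9891 genes, 0.121% passed limma and 40.6% had an unadjusted p under 0.05.

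Partner genes were read in the same way. The HOX cofactor genes PBX3, PBX4 and PKNOX2 had lower means in subfertile cows, and neither PBX3 (limma adjusted p = 0.261) nor PKNOX2 (limma adjusted p = 0.157) passed. Among the genes of the EYA, DACH and sine oculis homeobox families, which work with PAX factors, 7 of 12 had 104 sites, 3 genes were higher and 4 lower, and 0 of 6 tested passed, although 2 (SIX4 at 63.5% ± 23.5 against 23.9% ± 19.2 and EYA3 at 66.3% ± 24.7 against 96.9% ± 3.05) had an unadjusted p under 0.05. LMX1B and LDB2, 2 of 6 genes of LIM factors and their cofactors, were both higher in subfertile cows without passing. Of 41 other homeobox genes 3 had a site (EN1, BARX2 and ALX1), all lower, and 0 of 2 tested passed, with ALX1 at an unadjusted p under 0.05. Of 20 Polycomb and Trithorax genes, the regulators of these families, 6 had sites, 3 higher and 3 lower, and 0 of 5 tested passed, with JARID2 and RNF2 at an unadjusted p under 0.05. These counts stand beside 40.6% of all 9891 genes with a limma unadjusted p under 0.05 and 0.121% that passed. Whether any of these small lists differs from those shares was not tested.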

How the data were processed

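Tools named in the submitters' processing notes are ChIPseeker 1.32.1, DRAGEN, Bismark and fastp 0.23.1, with ARS-UCD1.2 as build. The sources used here name neither the program that called the sites nor its read minimum. Per the file headers, the deposited table holds methylation in percent per site and cow, a score for the difference in points and the distance to a start, and q-values and p-values for each site; all sites had an absolute difference above 25 points and a q-value of at most 0.00999985 (largest). How the deposited difference was computed is not given, and group differences here are unweighted means over cows (for HOXA10 20.8 points).

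Columns were matched to cows by number, with 0 left unused. Their prefixes, F for cows labelled subfertile and R for cows labelled fertile, are unexplained; the labels were followed, and if they were meant the other way every direction turns. Host genes came from the annotation text, and for 92 member sites the nearest gene is another. RefSeq names came from the table of ARS-UCD2.0, in which all 29 genes were found. Cows lacked between 0 and 13 of the 258 member values, most in subfertile cow 3.

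Differences (subfertile minus fertile) were tested with limma 3.58.1 in R 4.3.3 on log2((percent + 5)/(100 - percent + 5)), with Benjamini-Hochberg adjustment over all sites (at least 5 values per group) or all genes with a mean in all 12 cows. The planned 3 gene fits used all genic sites, at least 3 promoter sites, and promoter minus other sites. The fit was tested on simulated data. Genes named were those past a fit, the 3 with most sites per family, the 8 genes with the largest promoter differences, those without overlap, and members of the blood and reproduction lists. Members and lists were chosen with earlier results of these data known. Alternatives changed the offset, the scale, the sites, the site minimum, the gene assignment and the cows. Some genes of the partner and marker lists are not reported here.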

Additional observations from a re-analysis of the deposited data

Results flagged for a closer look

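In 7 of 55 groups of 6 gene means, 1 cow's distance to the nearest other cow of its group, over the group's range, was above Dixon's 95% limit. That limit is passed by about 1 in 20 groups of normally distributed values, and gene means with many values tied at 0 or 100% are not such values, so the number of groups is not set against chance. FOXN3 had fertile cow 1 at 46.5%, with the other fertile cows at 61.5 to 65.5%. PAX5 had subfertile cow 4 at 58.9%, with the others at 77.6 to 80.8%. PAX2 had fertile cow 2 at 63.0%, with the others at 27.1 to 33.3%. At single sites, LHX4 had subfertile cow 5 at 25% (others 91.7 to 100%), FOXI3 had subfertile cow 3 at 35.7% (others 0 to 11.8%), FOXO6 had subfertile cow 5 at 92.9% (others all at 100%), and PAX9 had fertile cow 5 at 0% (others 33.3 to 50%).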

How the results depend on the processing

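The count of member genes past limma was 0 in 26 tested and stayed 0 under 19 of 22 alternatives, including other offsets, plain percent values, averaging within 1 kb, and each of the 12 cows left out in turn (range 0 to 0). It was 7 of 17 without wide-range sites (FOXI3, HOXB13, PAX3, FOXP4, TBX20, HOXC13 and FOXRED2, where 42.2% of all genes passed), 1 of 16 with at least 3 sites per gene (TBX20), and 2 of 20 with clusters as units, chosen after the data were seen. Leaving out wide-range sites removes the sites with the widest spread between cows by construction, and it left 7 TBX20 sites, 3 PAX3 sites and 1 site in each of the other 5 genes. The promoter count and the promoter-minus-other count both went from 0 of 2 to 1 of 1 (FOXP1) without wide-range sites, where 74.8% and 27.1% of all genes passed, and stayed 0 under the other 17 alternatives each, the left-out cows included (range 0 to 0). Sites without overlap numbered 3 of 60 at a deposited difference of at least 40 points (1508 of 23954 over all genic sites) and 3 of 160 after averaging within 1 kb (1478 of 49672). The share of sites higher in subfertile cows moved to 25% (4 promoter sites) and 35.7% (56 other sites) at 40 points, and to 58.2% of 239 other sites with the nearest gene in place of the host. Leaving out 8 sites outside the listed transcripts, also chosen after the data were seen, changed no call. No paired analysis was possible because the labels number cows and pair none across groups. A coverage minimum was not run, since the table holds no read counts, and promoter sites within 1 kb of a start were too few for a member fit. Depth per cow is unknown, so levels at 0 or 100% carry no bound.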
